A study of Mus musculus with 6 samples.

Results

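The nuclear-encoded subunits of the mitochondrial respiratory chain and ATP synthase were examined in the retinas of female DBA/2J mice aged 8 and 3 months. Members were taken by gene symbol, namely Ndufa, Ndufb, Ndufc, Ndufs and Ndufv for complex I, Sdha to Sdhd for complex II, Uqcr for complex III, Cox4 to Cox8 for complex IV and Atp5 for complex V, without the Ndufaf assembly factors. This gave 82 of the 18193 genes named on the array, read by 169 probe sets. A further 10 probe sets, among them those of Ndufa11 and Ndufs6, were annotated to a member together with another gene and were left out. Per complex there were 36 genes in complex I, 4 in II, 8 in III, 17 in IV and 17 in V.

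DBA/2J is an inbred strain in which an inherited iris disease raises intraocular pressure with age and leads to glaucoma. Each of 6 Affymetrix mouse arrays held 1 whole retina of a separate animal. The 8-month animals had elevated pressure, last measured at 25.3, 26.5 and 30.4 mmHg in the eyes of retinas 1, 2 and 3, and the 3-month animals had normal pressure, at 19.1, 15.3 and 18.2 mmHg. Animals were picked after monthly pressure readings, so the effects of age and of pressure cannot be told apart. The 8-month retinas 2 and 3 came from right eyes and the other 4 retinas from left eyes. Whole retina mixes all retinal cell types, and in such samples fewer cells of a type and less RNA per cell cannot be told apart.

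The respiratory chain carries electrons from food to oxygen and pumps protons across the inner mitochondrial membrane. Complex I takes electrons from NADH and complex II from succinate, both passing them to ubiquinone; complex III hands them to cytochrome c, and complex IV reduces oxygen to water. Complex V, the ATP synthase, lets the protons return and makes ATP. In the retina the mitochondria are densest in the inner segments of photoreceptors, and the unmyelinated stretch of ganglion cell axons is also rich in them.

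Values are log2 expression levels per probe set, and a difference is the 8-month mean minus the 3-month mean. A probe set counted as measured where at least 3 of the 6 arrays reached 4, near the lower end of the signal range, which held for 143 of 169 member probe sets and 77 of 82 genes. The retina was recognisable by its rod genes. Sag, rod arrestin, averaged 13.83 at 8 months and 13.90 at 3 months, and Gnat1, rod transducin, 13.47 and 13.39. Pairs of arrays correlated at 0.985 to 0.994 over the measured probe sets. The lens crystallins stood apart in 8-month retina 1 and 3-month retina 3, where their mean log2 level was 8.83 and 10.10, against 4.05 and 4.46 in 8-month retinas 2 and 3 and 6.07 and 4.53 in 3-month retinas 1 and 2. The counts over all subunits and the medians by complex are also given without these retinas.

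Subunit transcripts stood slightly lower at 8 months than at 3 months in most genes, by a median of 0.11 on the log2 scale, or a 0.924-fold level. Of 143 member probe sets, 0 passed the test over all 20973 measured probe sets, where 0.00477% passed (limma, Benjamini-Hochberg adjusted p of at least 0.223 for every member). An unadjusted limma p under 0.05 was met by 12 that were lower, or 8.39%, against 10.3% of all probe sets, and 3 higher, or 2.10%, against 4.63%. That share is near or below the background. Direction was less evenly spread. Of the 143, 118 were lower at 8 months, or 82.5%, against 59.4% of all probe sets, and in 46, or 32.2%, every 8-month retina lay below every 3-month retina, against 14.9% of all. Every 8-month retina lay above every 3-month retina in 5, or 3.50%, against 6.89%. The count of 15 probe sets at an unadjusted limma p under 0.05 was unstable, being 41 without 3-month retina 2, 9 without 3-month retina 3 and 5 without any 1 of 8-month retina 1, 8-month retina 2 or 3-month retina 1. It was 1 without both crystallin-rich retinas.

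Counted by gene, each gene read by its brightest measured probe set, 60 of 77 were lower at 8 months, or 77.9%, against 63.5% of all 11219 genes. The median difference was -0.11 for the subunits and -0.058 for all genes. None of the 77 passed the adjusted limma test, which 0.00891% of all genes did; an unadjusted limma p under 0.05 was met by 5 lower and 2 higher genes, against 11.5% and 3.58% of all genes. The ages did not overlap in 23 lower genes, against 16.9% of all, and in 4 higher genes, against 6.05% of all. Differences were small throughout: none of the 77 exceeded 0.5, a size that 274 of all genes passed, and the largest was 0.36. The subunits also varied little between retinas of 1 age, with a median SD of 0.098 against 0.134 for all genes. Their median level was higher, at 10.16 against 6.89, and the SD was not compared at matched level. The direction depended on the scaling of the arrays. After centring each array on its median, 43 of 77 were lower, or 55.8%, against 44.4% of all genes, and the median difference was -0.032 for the subunits and 0.025 for all genes. Set against the median of all genes, the subunits were lower by 0.057 in the deposited values, by 0.057 after median centring, by 0.065 after quantile normalization and by 0.059 after cyclic loess. That margin was 0.012 without 3-month retina 1 and 0.019 without 8-month retina 2, and 0.021 with eye side as a covariate.

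**Figure D1:**
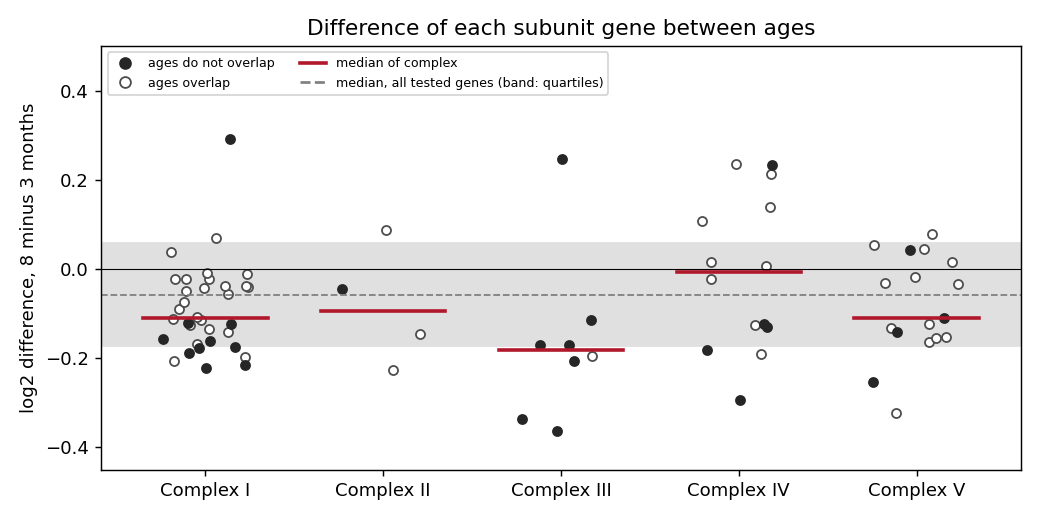
Each point is 1 subunit gene, placed by its log2 difference between ages (8 minus 3 months) and grouped by complex; filled points are genes whose ages do not overlap, red bars are medians, and the band spans the quartiles of all 11219 tested genes around their median of -0.058 (dashed). Each gene is read by its brightest measured probe set. Complex III sits lowest, with a median of -0.18, and complex IV is centred at -0.0079. Over all measured probe sets, which are not drawn, their medians are -0.13 and -0.12.

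The complexes differed in how their genes were placed. Complex III had 7 of 8 genes lower, with a median difference of -0.18, and in 6 of the 8 the ages did not overlap with 8 months lower. Complex I had 31 of 34 genes lower at a median of -0.11, with 9 not overlapping, or 26.5%. Complex II had 3 of 4 lower at a median of -0.095, with 1 not overlapping, and complex V 12 of 17 at a median of -0.11, with 3 not overlapping, or 17.6%, close to the share of all genes. Complex IV had 7 lower and 7 higher at a median of -0.0079, and 4 of its 14 genes, or 28.6%, did not overlap with 8 months lower. With 8 months higher, 1 gene did not overlap in each of complexes I, III, IV and V and 0 in complex II, against 6.05% of all genes. After median centring the medians were -0.027, -0.012, -0.099, 0.075 and -0.027 for complexes I to V, so that complex IV was on the other side of 0. Its median also stood at 0.00057 after quantile normalization, and at -0.12 with the filter raised to 6. Over all its measured probe sets, 19 of 27 were lower, at a median of -0.12. The medians over all measured probe sets of complexes I, II, III and V were -0.12, -0.094, -0.13 and -0.099. Read this way, the complexes lay closer together than by the brightest probe set of each gene. Without both crystallin-rich retinas the medians of complexes I to V were -0.11, -0.10, -0.18, -0.064 and -0.11. No test of the differences between complexes was made.

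Averaged over the 34 genes of complex I, and relative to each gene's mean over the 6 arrays, the log2 level was -0.033, -0.096 and -0.0024 in 8-month retinas 1, 2 and 3 and 0.115, 0.0065 and 0.0092 in 3-month retinas 1, 2 and 3. Complex V gave -0.042, -0.080 and -0.0017 at 8 months and 0.134, -0.0066 and -0.0031 at 3 months. In both complexes the 3-month retina 1 stood above the rest and the 8-month retina 2 below it, while 8-month retina 3 lay close to 3-month retinas 2 and 3. For complex V the ages overlapped. Complex III gave -0.088, -0.140 and -0.018 at 8 months and 0.126, 0.030 and 0.089 at 3 months, without overlap. Complex II lay at -0.023, -0.113 and 0.012 at 8 months and at 0.031, 0.079 and 0.014 at 3 months, where the nearest retinas of the ages almost met. Complex IV, at -0.023, -0.039 and 0.050 against -0.040, 0.079 and -0.026, overlapped fully. All 11219 tested genes stood at -0.034, -0.037 and -0.012 at 8 months and 0.029, 0.017 and 0.036 at 3 months, also apart. Complexes I and II were apart only in the deposited values, overlapping after quantile normalization, median centring and cyclic loess. Complex III stayed apart after quantile normalization and cyclic loess but overlapped after median centring. There 8-month retina 3 stood at 0.0151 and 3-month retina 2 at 0.0135.

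**Figure D2:**
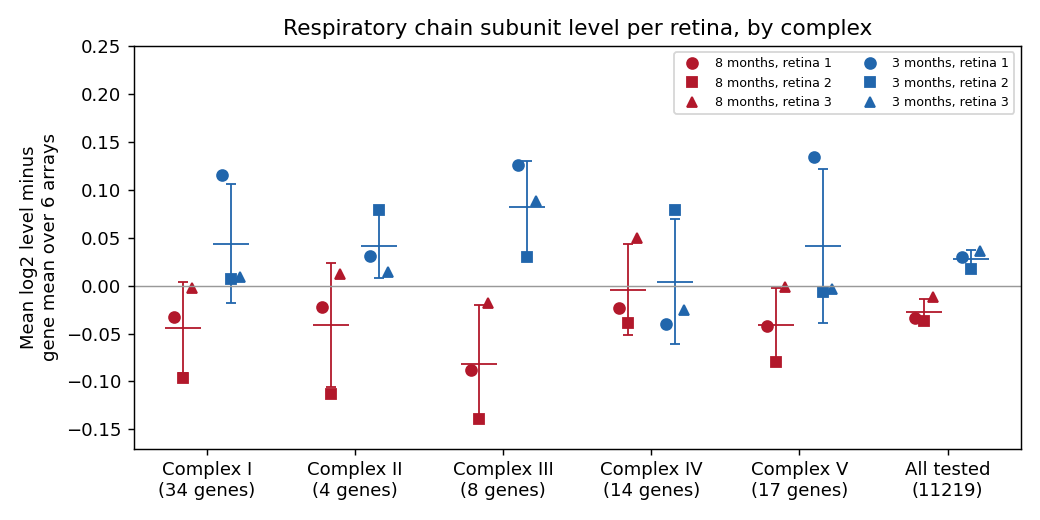
Mean log2 level of the genes of each complex in each retina, relative to each gene's mean over the 6 arrays; symbols mark retinas 1 to 3, horizontal bars the mean of an age and whiskers its SD (n = 3). The 3-month retina 1 is highest in complexes I, III and V, at 0.115, 0.126 and 0.134, and 8-month retina 2 is lowest in complexes I, II, III and V.

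The highest of the 6 values lay in 3-month retina 1 for 44 of 77 subunit genes, or 57.1%, against 28.2% of all genes. The lowest lay in 8-month retina 2 for 32, or 41.6%, against 18.4% of all genes. Complex IV was spread otherwise, with 3-month retina 1 highest in 4 of 14 genes and 8-month retina 2 lowest in 1. Leaving out 3-month retina 1, the median difference was -0.061 in complex I and -0.043 in complex V. Leaving out 8-month retina 2 it was -0.073 and -0.065. Complex III kept a median of -0.15 without 3-month retina 1 and -0.13 without 8-month retina 2.

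**Figure D3:**
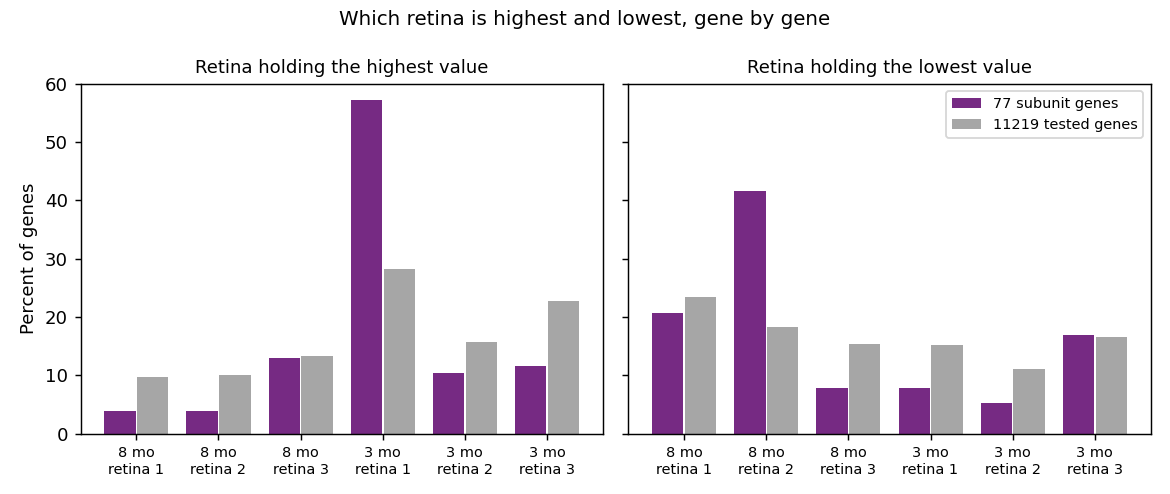
Percent of genes whose highest value (left) or lowest value (right) among the 6 arrays lies in each retina, for the 77 subunit genes and for all 11219 tested genes. Subunit genes have their highest value in 3-month retina 1 in 57.1% and their lowest in 8-month retina 2 in 41.6%, against 28.2% and 18.4% of all genes.

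Within complex I the 6 measured core subunits, which hold the flavin and iron-sulfur centres of the matrix arm or carry its core fold, were all lower at 8 months, at a median of -0.13, and so were all 16 of their probe sets. Ndufs3, one of these, read 9.98, 9.97 and 9.99 at 8 months and 10.25, 10.08 and 10.27 at 3 months, so the ages did not overlap. Its difference was -0.22 ± 0.08 (SE; limma, adjusted p = 0.305). Ndufv1, the NADH-oxidising flavoprotein, differed by -0.11, and Ndufv2, its iron-sulfur partner, by -0.18. Ndufs8, an iron-sulfur subunit near the quinone site, had 6 measured probe sets, all lower, from -0.33 to -0.10.

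The accessory subunits surround this core. Of 15 accessory Ndufa, Ndufs and Ndufv genes outside the core and outside the Ndufa4 pair, all 15 were lower, at a median of -0.12. Of 11 accessory genes of the membrane arm, named Ndufb and Ndufc, 9 were lower at a median of -0.074. Ndufb11, a membrane-arm subunit, stood at 12.17 in all 3 of the 8-month retinas and at 12.48, 12.28 and 12.41 at 3 months, a difference of -0.22 ± 0.08 (SE; limma, adjusted p = 0.307). All 3 of its probe sets had the 8-month retinas below the 3-month ones. Ndufb2 read 8.60, 8.64 and 8.67 at 8 months and 8.92, 8.77 and 8.78 at 3 months, again without overlap, while a further probe set of it differed by 0.10. A dimmer probe set of Ndufb9, another membrane-arm subunit, read 8.40, 8.54 and 8.61 at 8 months and 8.97, 8.75 and 8.98 at 3 months, without overlap. It differed by -0.38 ± 0.10 (SE; limma, adjusted p = 0.232), against -0.14 for the brighter one, whose ages overlapped.

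Both higher genes of complex I outside the Ndufa4 pair belong to the membrane arm. Ndufb6 read 10.65, 10.66 and 10.66 at 8 months and 10.26, 10.62 and 10.22 at 3 months, so that 3-month retina 2 lay close to the older retinas. The difference was 0.29 ± 0.12 (SE; limma, adjusted p = 0.327), but its other probe set differed by 0.012 with overlapping ages. Ndufc2 read 12.35, 12.29 and 12.32 at 8 months and 12.23, 12.30 and 12.21 at 3 months, which overlap, and its other probe sets differed by -0.15 and -0.038. The acyl carrier protein gene Ndufab1, which also serves mitochondrial fatty acid synthesis, differed by -0.16 with no overlap.

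Ndufa4 carries a complex I name, but its protein was later placed in complex IV. It read 9.79, 9.74 and 9.70 at 8 months and 10.01, 9.60 and 9.69 at 3 months, with 3-month retina 1 highest and overlapping ages. The 95% interval of its difference ran from -0.30 to 0.26. Ndufa4l2, a paralogue known as a hypoxia-induced gene, lay near the detection limit, at 4.57, 4.12 and 4.19 at 8 months and 4.20, 4.18 and 4.38 at 3 months. With eye side as a covariate, which compares 8-month retina 1 alone with the 3-month retinas, its difference was 0.32, against 0.038 without.

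Complex II, which is also an enzyme of the citric acid cycle, was measured through all 4 of its genes. Sdha, the flavoprotein that oxidises succinate, read 11.30, 11.30 and 11.34 at 8 months and 11.37, 11.35 and 11.35 at 3 months. The ages did not overlap, but the difference was -0.044 (limma, adjusted p = 0.784), and after median centring it was 0.039. Sdhb, the iron-sulfur subunit, read 7.30, 7.24 and 7.43 at 8 months and 7.42, 7.58 and 7.41 at 3 months, where 8-month retina 3 lay among the younger ones.

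Sdhc and Sdhd encode the membrane anchors. Sdhc read 8.12, 7.86 and 8.04 at 8 months and 8.45, 8.03 and 8.21 at 3 months, with 8-month retina 2 lowest and 3-month retina 1 highest. Its difference was -0.23 ± 0.13 (SE; limma, adjusted p = 0.443). Sdhd read 9.38, 9.35 and 9.43 at 8 months and 9.08, 9.55 and 9.28 at 3 months, a difference of 0.086 with overlap, whereas its dimmer probe set differed by -0.13 without overlap. The direction of Sdhd therefore depended on the probe set.

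Read by the brightest probe set of each gene, the members of smallest p lay in complex III. Uqcrc1, a core protein on the matrix side, read 6.58, 6.56 and 6.79 at 8 months and 7.01, 6.93 and 7.09 at 3 months, a gap with no overlap. Its difference was -0.36 ± 0.09 (SE), a 0.777-fold level, with a 95% interval from -0.59 to -0.14 (limma, unadjusted p = 0.00636, adjusted p = 0.223). Uqcr10, a small subunit, read 8.03, 8.02 and 8.06 at 8 months and 8.40, 8.22 and 8.50 at 3 months, a difference of -0.34 ± 0.09 (SE; limma, adjusted p = 0.242). All 3 Uqcr10 probe sets were lower, from -0.34 to -0.13.

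Uqcrfs1, the Rieske iron-sulfur protein that passes electrons on from ubiquinol, read 8.70, 8.71 and 8.66 at 8 months and 8.93, 8.79 and 8.86 at 3 months, with no overlap and a difference of -0.17. The other core protein gene, Uqcrc2, and the small subunit genes Uqcrq, Uqcr11 and Uqcrh differed by -0.17, -0.21, -0.19 and -0.11. Uqcrb, a small subunit at the quinone-binding region, went the other way. It read 12.91, 12.93 and 12.98 at 8 months and 12.65, 12.89 and 12.55 at 3 months, a difference of 0.25 ± 0.10 (SE; limma, adjusted p = 0.332), and its other probe set differed by 0.049.

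**Figure D4:**
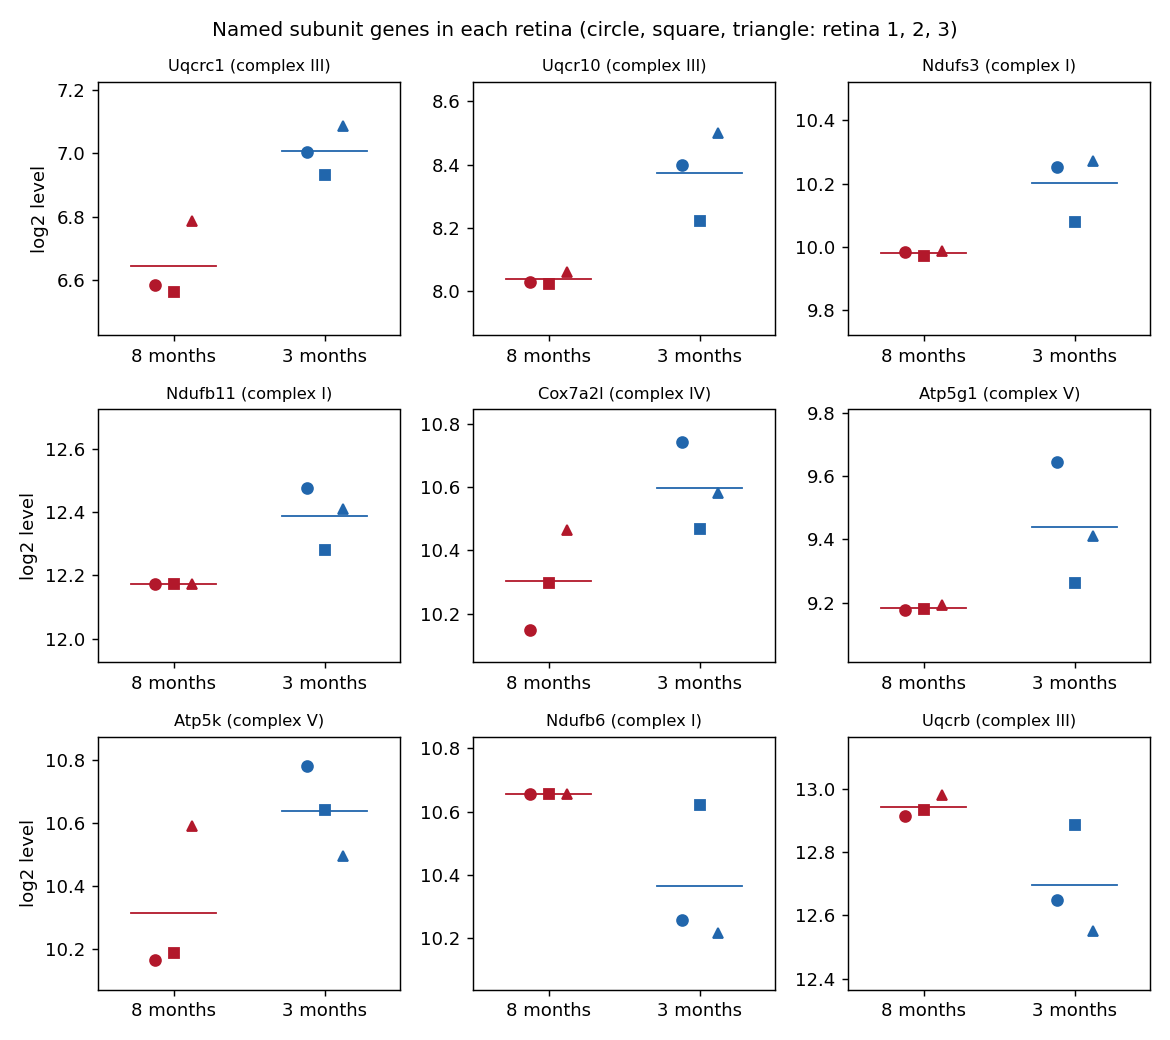
Log2 level of 9 named subunit genes in each retina, 8 months on the left and 3 months on the right of each panel, with circles, squares and triangles for retinas 1, 2 and 3 and lines for the means; every panel spans 0.8 log2 units. Uqcrc1, Uqcr10, Ndufs3, Ndufb11, Cox7a2l and Atp5g1 are lower at 8 months without overlap, Atp5k overlaps, and Ndufb6 and Uqcrb are higher, with 3-month retina 2 close to the older retinas.

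Complex IV was mixed, and its genes of common and of tissue-restricted expression are described apart. Of the 9 widely expressed subunit genes, 4 were lower and 5 higher at a median of 0.0073, yet of their 20 probe sets 14 were lower at a median of -0.11. Cox5b read 11.84, 11.83 and 11.93 at 8 months and 12.14, 11.96 and 12.04 at 3 months, with no overlap, a difference of -0.18 ± 0.08 (SE; limma, adjusted p = 0.362), and all 5 of its measured probe sets were lower. Cox6a1, the form of subunit 6A outside heart and muscle, read 11.35, 11.38 and 11.45 at 8 months and 11.50, 11.54 and 11.53 at 3 months, likewise apart. Cox4i1, the common form of subunit 4, read 10.64, 10.74 and 10.75 at 8 months and 10.82, 10.90 and 10.79 at 3 months, also apart, by -0.12.

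Cox7a2l, whose protein joins complexes III and IV into supercomplexes, showed the lowest complex IV difference. It read 10.15, 10.30 and 10.47 at 8 months and 10.74, 10.47 and 10.58 at 3 months, so that 8-month retina 3 and 3-month retina 2 almost met. The difference was -0.29 ± 0.12 (SE; limma, adjusted p = 0.313), and all 3 probe sets were lower, from -0.29 to -0.19. With eye side as a covariate it was -0.45.

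The remaining common genes overlapped between ages. Cox8a read 8.33, 8.36 and 8.59 at 8 months and 8.79, 8.47 and 8.59 at 3 months. Cox6b1 read 10.55, 10.36 and 10.56 at 8 months and 10.31, 10.56 and 10.29 at 3 months, higher by 0.11, while its other probe set differed by -0.18. Cox7a2, the non-muscle form of subunit 7A, was level, at 13.01, 12.91 and 12.95 at 8 months and 13.05, 12.91 and 12.89 at 3 months, with a 95% interval from -0.19 to 0.20. Cox7c, read here by 1 dim probe set, stood at 5.52, 5.82 and 5.53 at 8 months and at 5.12, 5.69 and 5.36 at 3 months.

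The tissue-restricted forms were dim or undetected. The heart and muscle form Cox7a1 and the testis forms Cox7b2 and Cox8c did not pass the filter, with readings from 3.04 to 3.31 at 8 months and from 3.04 to 3.42 at 3 months for Cox7a1. Of the other muscle forms, Cox6a2 read 5.15, 5.12 and 5.22 at 8 months and 5.21, 5.29 and 5.06 at 3 months, and Cox8b 5.13, 4.69 and 4.61 against 4.42, 5.18 and 5.20, both overlapping. Among 8 markers of striated muscle, 2 passed the filter, Mb and Tnni2, and neither averaged above 4.5, while the myosin genes Myh1, Myh2 and Myh4 and the actin gene Acta1 averaged below 3.

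Cox4i2, the form of subunit 4 known from lung, read 4.40, 4.50 and 4.43 at 8 months and 4.32, 4.38 and 4.59 at 3 months. Cox6b2, known as the testis form of subunit 6B, read 5.95, 5.85 and 6.16 at 8 months and 5.79, 5.83 and 5.63 at 3 months. All 3 older retinas lay above the younger ones, 5.85 against 5.83 at the nearest pair, and the difference was 0.23 ± 0.11 (SE; limma, adjusted p = 0.366).

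Complex V was described by its parts. The 5 genes of the catalytic F1 head were all lower, at a median of -0.13, and so were 8 of their 9 probe sets. Atp5a1 and Atp5b, the alpha and beta subunits, differed by -0.11 and -0.13. Atp5c1, the rotating gamma subunit, read 11.13, 11.06 and 11.05 at 8 months and 11.33, 11.10 and 11.27 at 3 months, overlapping. The other probe set of Atp5c1 was higher by 0.042. Of the 4 peripheral stalk genes, which hold the head still, 2 were lower and 2 higher. Atp5o, the stalk protein that binds the head, read 10.99, 10.96 and 11.05 at 8 months and 10.93, 11.03 and 10.82 at 3 months, higher by 0.077, while its other probe set was lower by 0.19 without overlap.

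The genes Atp5g1, Atp5g2 and Atp5g3 encode the same mature c subunit of the rotor ring and differ in their import sequences. Atp5g1 read 9.18, 9.18 and 9.19 at 8 months and 9.64, 9.26 and 9.41 at 3 months, without overlap, a difference of -0.25 ± 0.11 (SE; limma, adjusted p = 0.341), while a dim further probe set differed by 0.089 with overlap. Atp5g2 read 10.03, 9.98 and 10.05 at 8 months and 10.26, 10.06 and 10.15 at 3 months, with 10.05 and 10.06 as the nearest pair. Atp5g3 read 11.71, 11.78 and 11.69 at 8 months and 11.68, 11.68 and 11.69 at 3 months, a difference of 0.044 with a 95% interval from -0.13 to 0.22.

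Among 5 small membrane subunit genes of complex V, 3 were lower and 2 higher. Atp5k, the e subunit at the dimer interface, read 10.17, 10.19 and 10.59 at 8 months and 10.78, 10.64 and 10.50 at 3 months, with 8-month retina 3 among the younger ones. Its difference was -0.32 ± 0.14 (SE; limma, adjusted p = 0.341), and its other probe sets differed by -0.32 and -0.18. Atp5mpl, a small membrane protein of the synthase, read 9.95, 9.78 and 9.90 at 8 months and 9.90, 9.75 and 9.82 at 3 months, higher by 0.054 with overlap.

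Probe sets of 1 gene did not always point the same way. Of 42 subunit genes with more than 1 measured probe set, 27 had all of them lower, 3 all higher and 12 had both. The spread between probe sets of a gene was widest in Ndufa12, from -0.12 to 0.46, the higher value in a dim probe set (limma, adjusted p = 0.301). In Cox6c it ran from -0.15 to 0.21, in Atp5g1 from -0.25 to 0.089, in Cox5a from -0.18 to 0.14, in Cox6b1 from -0.18 to 0.11 and in Atp5o from -0.19 to 0.077. Of the 35 genes with 1 measured probe set, 29 were lower. Probe sets whose suffix marks possible matches to several transcripts were lower in 37 of 44, and the others in 81 of 99.

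The higher probe set of Ndufb6, Uqcrb, Sdhd, Cox5a, Cox6b1, Cox6c and Cox7c shared 1 layout. In each, 3-month retinas 1 and 3 were the lowest of the 6, and 3-month retina 2 lay at least 0.2 above both. This layout was noticed after the values were seen. It was found in 7 of 143 member probe sets, or 4.90%, against 5.19% of all measured probe sets. Counted by probe set over all complexes, it was thus no more frequent among the subunits. Of the 7, Cox5a, Cox6b1, Cox6c and Cox7c belong to complex IV. Shares by gene or by complex were not compared.

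Level on the array moved with the difference. Over all measured probe sets the median difference was -0.082 at mean levels from 6 to 8, -0.059 from 8 to 9, -0.035 from 9 to 10, -0.026 from 10 to 11 and -0.00057 above 11. Member probe sets in the same ranges had medians of -0.20, -0.17, -0.12, -0.093 and -0.044. From 10 to 11, 37 of 45 member probe sets were lower, against 56.3% of all in that range. Between 4 and 6, the 16 member probe sets had a median of -0.025, close to -0.020 for all.

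**Figure D5:**
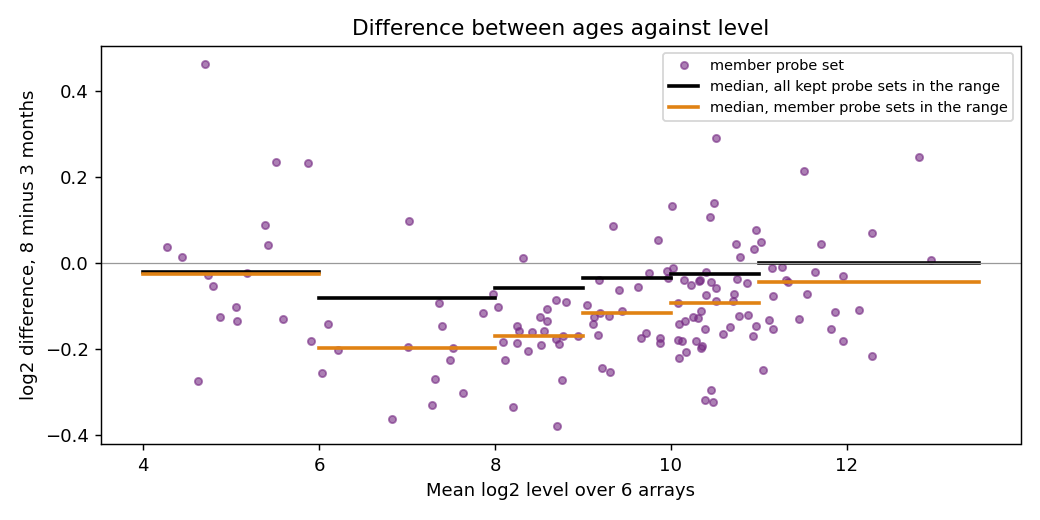
Log2 difference between ages (8 minus 3 months) of each measured member probe set against its mean log2 level over the 6 arrays. Orange bars are medians of member probe sets in each range and black bars those of all measured probe sets; the orange bars lie below the black ones in every range, from -0.20 against -0.082 at levels 6 to 8 to -0.044 against -0.00057 above 11.

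Measures of RNA state and of cell makeup differed between some retinas as well. The Gapdh control, read as signal at the 3′ end minus the 5′ end, was 0.811, 0.755 and 0.774 in 8-month retinas and 0.707, 0.751 and 0.729 in 3-month retinas, without overlap. The same measure of actin, at 1.84, 1.71 and 1.82 against 1.62, 1.87 and 1.79, overlapped. That of the transferrin receptor, at 2.37, 2.21 and 2.32 in 8-month retinas and 2.74, 2.29 and 2.48 in 3-month retinas, also overlapped and averaged lower at 8 months. Of 10 rod markers 8 were measured, 7 were lower and 5 without overlap, against 63.5% and 16.9% of all genes, the list's mean level being 11.48, 11.49 and 11.56 at 8 months and 11.70, 11.72 and 11.61 at 3 months. Of 7 microglia markers 4 were measured and all 4 were higher, 3 of them without overlap, against 36.5% and 6.05% of all genes. Csf1r overlapped, at a difference of 0.085, while C1qb differed by 1.05, Ctss by 0.65 and Tyrobp by 0.35. The mean level of the 4 was 6.62, 6.76 and 6.75 at 8 months and 6.13, 6.12 and 6.29 at 3 months. Markers lower among those measured numbered 5 of 7 for cones, 1 of 3 for bipolar cells, 1 of 5 for amacrine cells, 4 of 5 for ganglion cells, 0 of 5 for Müller glia, 1 of 4 for pigment epithelium, 9 of 9 for lens and 0 of 1 for blood. The part of these in the subunit differences was not tested. Without both crystallin-rich retinas, 63 of 77 subunit genes were lower.

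Other genes of mitochondrial respiration were read from fixed lists, and in each list 0 genes passed the adjusted limma test. Of all genes, 63.5% were lower at 8 months, at a median of -0.058. Assembly factors, which build the complexes without staying in them, were lower in 33 of 42 measured genes at a median of -0.12. Of these, 11 had an unadjusted limma p under 0.05, against 11.5% of all genes, all lower. Surf1, which helps assemble complex IV, read 9.35, 9.30 and 9.37 at 8 months and 9.68, 9.55 and 9.61 at 3 months. Cox19, a copper-pathway protein of the same complex, read 5.78, 5.81 and 5.85 at 8 months and 6.15, 6.10 and 6.07 at 3 months. Both were without overlap, by -0.27 for Surf1 and -0.30 for Cox19.

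Citric acid cycle genes were lower in 10 of 16 at a median of -0.057, near the 63.5% and -0.058 of all genes. An unadjusted limma p under 0.05 was met by 5 of the 16, all lower, against 11.5% of all genes. The ages did not overlap in 6 lower genes, against 16.9% of all genes, and in 1 higher gene, against 6.05%. Among the cycle genes Fh1, fumarase, differed by -0.30 and Dlat, a subunit of pyruvate dehydrogenase, by -0.28. Of 10 electron carriers and related enzymes, 8 were lower at a median of -0.12. Coq7, of ubiquinone synthesis, differed by -0.30, and Aifm1, an inner membrane flavoprotein, by -0.20. Cytochrome c, Cycs, was higher by 0.29 with overlapping ages, at 10.50, 10.44 and 10.70 against 10.11, 10.63 and 10.04, and Cyc1, the complex III subunit cytochrome c1, differed by -0.085. Of 6 carriers and pores, 3 were lower and 3 higher, with the ATP/ADP exchanger gene Slc25a4 at 0.28 and the outer membrane channel gene Vdac3 at 0.10.

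Mitochondrial DNA encodes further subunits, of which ND5 of complex I was read here. It read 12.50, 12.53 and 12.54 at 8 months and 12.15, 12.48 and 12.14 at 3 months, higher by 0.27 ± 0.11 (SE; limma, adjusted p = 0.331), and 3-month retina 2 lay close to the older retinas. Among 14 nuclear regulators of mitochondrial genes, 9 were lower, a share near the 63.5% of all genes. Their median was -0.28, against -0.058 for all genes. Of the 14, 6 had an unadjusted limma p under 0.05, all lower, against 11.5% of all genes. In 5 the ages did not overlap with 8 months lower, against 16.9% of all genes, and in 0 with 8 months higher. Tfam, which packages and transcribes mitochondrial DNA, read 7.48, 7.42 and 7.44 at 8 months and 7.90, 7.69 and 8.29 at 3 months, a difference of -0.51 ± 0.15 (SE; limma, adjusted p = 0.255). Esrrb, an orphan nuclear receptor, differed by -0.49 ± 0.14 (SE; limma, adjusted p = 0.253), both without overlap.

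Nrf1, nuclear respiratory factor 1, is known to bind the promoters of many respiratory chain genes. Its transcript was dim, at 4.93, 4.32 and 4.47 at 8 months and 4.90, 4.89 and 5.12 at 3 months, overlapping. RefSeq promoter windows of GRCm38.p6, from 250 bases before to 50 after a gene's start, were available for 67 of the 82 subunit genes and were searched on both strands. The core of the Nrf1 site, GCGCA, any base and GCGC, occurred in 15 of 67, or 22.4%, against 7.17% of 17492 protein-coding genes. The letters AAGATGGCG of the YY1 site occurred in 6 of 67, or 8.96%, against 2.14%. Those of the ETS family, CCGGAAGT, occurred in 5 of 67, or 7.46%, against 5.69%. TCAAGGTCA of oestrogen-related receptors occurred in only 2 of 67, or 2.99%, against 0.377%. No matches overlapped in the windows printed. A match is a description of the letters and not evidence of binding.

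The 250 bases before the start are shown for 5 subunit genes described above that hold the Nrf1 letters there, given in capitals, so that their number and place can be compared. Atp5c1, also described above, holds a match that begins at -17 and is not shown. Sdha holds 3 matches and Cox6a1 holds 2, and Sdhd, Atp5g2 and Atp5k hold 1 each. Counted from the start, the match begins at -79 in Sdhd, at -42 in Atp5g2 and at -50 in Atp5k. They lie on the minus strand at chr13:74350241-74350490 for Sdha, chr9:50603850-50604099 for Sdhd, chr5:115348959-115349208 for Cox6a1, chr15:102671048-102671297 for Atp5g2 and chr5:108434400-108434649 for Atp5k, and each is written 5′ to 3′ along its gene.
Sdha: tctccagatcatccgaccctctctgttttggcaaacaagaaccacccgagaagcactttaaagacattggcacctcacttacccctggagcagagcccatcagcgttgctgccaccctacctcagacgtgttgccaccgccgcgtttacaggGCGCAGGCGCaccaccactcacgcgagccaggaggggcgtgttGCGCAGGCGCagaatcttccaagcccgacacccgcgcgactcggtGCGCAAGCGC
Sdhd: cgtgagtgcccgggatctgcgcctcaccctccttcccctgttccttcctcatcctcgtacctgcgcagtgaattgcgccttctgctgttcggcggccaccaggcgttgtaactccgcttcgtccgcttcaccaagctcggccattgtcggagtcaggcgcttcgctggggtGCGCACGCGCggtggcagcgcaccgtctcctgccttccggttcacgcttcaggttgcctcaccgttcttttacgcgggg
Cox6a1: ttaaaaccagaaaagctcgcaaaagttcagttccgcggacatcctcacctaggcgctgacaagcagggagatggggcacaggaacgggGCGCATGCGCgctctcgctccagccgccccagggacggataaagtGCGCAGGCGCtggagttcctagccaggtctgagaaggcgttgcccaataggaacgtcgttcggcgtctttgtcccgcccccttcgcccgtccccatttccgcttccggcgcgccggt
Atp5g2: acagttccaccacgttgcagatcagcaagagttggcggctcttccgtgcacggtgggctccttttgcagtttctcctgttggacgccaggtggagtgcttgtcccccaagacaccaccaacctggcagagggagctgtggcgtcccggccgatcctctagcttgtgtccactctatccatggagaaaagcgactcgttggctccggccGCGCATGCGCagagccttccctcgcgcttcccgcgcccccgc
Atp5k: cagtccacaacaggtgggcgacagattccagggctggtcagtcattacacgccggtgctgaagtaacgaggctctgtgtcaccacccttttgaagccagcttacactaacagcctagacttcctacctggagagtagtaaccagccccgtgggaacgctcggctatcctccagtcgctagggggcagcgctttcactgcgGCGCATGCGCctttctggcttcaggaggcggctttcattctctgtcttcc

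Of 14 measured genes with them, 11 were lower at a median difference of -0.11, and of 49 without them, 40 were lower at a median of -0.12. No test of this difference was made.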

How the data were processed

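The deposited table holds log2 values, 1 per probe set. The submitters' processing notes name GCRMA 1.1.0 and R 1.9.0 for the authors' normalization, with no options given in the sources used here. The method corrects background by probe sequence and compresses weak signals, which can shrink differences of dim probe sets. Per the labels' protocols, 20 ng of RNA per retina was amplified and labelled.

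Of 45101 probe sets, 64 controls were left out, and 20973 with at least 3 of 6 values at 4 or more were kept (46.6%). Names came from the platform annotation, and all 82 member genes matched GRCm38.p6 by gene identifier. Where a gene had several kept probe sets, the one of highest mean stood for it. The 8-month and 3-month arrays were compared with limma 3.58.1 (R 4.3.3; lmFit, then eBayes), two-sided, with no covariate; p-values were adjusted by Benjamini-Hochberg across the kept table and called at 0.05. Exact permutation of 3 against 3 arrays reaches p = 0.1 at the lowest and was not used. The number of arrays limits the precision. The fit was tested on simulated data.

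Members, lists, alternatives and the naming rule were chosen with earlier results of these data known. Named were, in complexes I, III, IV and V, the 3 lower and 2 higher genes of smallest p; all of complex II; the isoform families; and the 2 genes of smallest p in each further list. Other genes were named after their values were seen.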

Additional observations from a re-analysis of the deposited data

How the results depend on the processing

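Under every alternative run, 0 member probe sets passed the adjusted limma test. The count of member probe sets at an unadjusted limma p under 0.05 was 15 in the deposited values. It was 33 with no filter, 29 with an intensity trend and 7 after median centring. Without both crystallin-rich retinas it was 1, and with 1 retina left out it ran from 5 to 41. With eye side as a covariate the age difference rests on 8-month retina 1 alone, so no count is given. Lower subunit genes numbered from 43 to 66 over the alternatives and from 56 to 61 with 1 retina left out. The subunit genes measured numbered from 71 to 82 over the alternatives and 77 with 1 retina left out. The lowest count, after median centring, was 55.8%, against 44.4% of all genes. The median difference of complex IV changed sign after quantile normalization (0.00057), after median centring (0.075) and with eye side as a covariate (0.014), and was -0.12 with the filter at 6, where Cox7c and 4 dim tissue forms drop out. Median centring moved complexes I, II, III and V to -0.027, -0.012, -0.099 and -0.027. With 1 retina left out the medians ran from -0.13 to -0.061 in complex I, from -0.13 to -0.068 in II, from -0.23 to -0.13 in III, from -0.026 to -0.0062 in IV and from -0.12 to -0.043 in V. Of 528 single-gene values under the alternatives, 510 moved by less than the spread between replicates, 18 by more, and 0 were called. A probe set's difference cannot move with no filter, the filter at 6, the suffix exclusion, the intensity trend or the replicate block. Values from these settings are among the 510, so that count does not measure stability. Of the 34 named genes, 8 changed sign in at least 1 alternative, 25 times in all. Replicate numbers do not pair the retinas, as same-numbered retinas correlated at -0.14, 0.064 and -0.28 in their deviations from the age means; with the replicate block the count at an unadjusted limma p under 0.05 was 7. Causes were not tested. Signal near the filter limits the tissue-restricted forms.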
